A study of Mus musculus with 4 samples.

Results

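Kera-high fibrous mesenchyme stands here for cells of the mouse penis at E16.5 that carried 2 or more unique molecular identifiers (UMIs, each marking a captured mRNA molecule) of Kera and at least 1 of Col1a1. They were picked from barcodes with 1000 to 10000 UMIs in all, of which at most 25% came from mitochondrial genes and at most 25% from Hba and Hbb hemoglobin genes. The rule found 696 cells, which were 2.07% of the 33704 barcodes within these limits and came from 47040 deposited barcodes. Counts of Kera and Col1a1 chose the cells, so the levels of both genes in them are given as a description, and no test of either is reported.

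The study removed cells of the Nr5a1 lineage from the developing penis to learn what they contribute to closure of the urethra, and profiled 4 penis libraries with the 10x Genomics 3' method. Both control libraries (DTA-, labelled WT) lacked the Cre transgene but carried 1 Rosa-LSL-DTA allele, which encodes diphtheria toxin behind a stop cassette. Both ablated libraries (DTA+) carried the same allele together with the Nr5a1-Cre transgene, which switches the toxin on, and they came from sires that also bore a Rosa-LSL-tdTomato reporter. All 4 were male. The toxin acts wherever the transgene is active, testes and adrenal glands included, and control embryos keep both glands. Whether a library holds 1 embryo or several is not given in the sources used here, so p-values measure the spread between these libraries. Values for single libraries follow the order DTA- replicate 1, DTA- replicate 2, DTA+ replicate 1 and DTA+ replicate 2.

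Kera encodes keratocan, a small leucine-rich proteoglycan best known from the corneal stroma and also made in tendon. Proteoglycans of this family bind collagen and regulate how its fibrils assemble. Their genes Dcn, Lum, Kera and Epyc form a cluster on mouse chromosome 10, with Kera at chr10:97606879-97613692 and Lum at chr10:97565128-97572703 (GRCm38, both on the plus strand). Tendon cells are recognised by the transcription factors Scx and Mkx and by the membrane protein tenomodulin (Tnmd). The tunica albuginea is the dense sheath around the erectile bodies of the penis, built of collagen bundles interleaved with elastic fibers. It has no marker gene of comparable standing among the lists used here, so likeness to it could be read only from matrix genes that other fibrous tissues share.

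The libraries held 73577028, 53654435, 50794318 and 50779551 UMIs. Kera-high cells numbered 119, 192, 192 and 193. They made up 1.57% of the barcodes within the limits in DTA- replicate 1 (95% exact binomial interval 1.30 to 1.87), 2.28% in DTA- replicate 2 (1.97 to 2.62), 2.31% in DTA+ replicate 1 (2.00 to 2.66) and 2.06% in DTA+ replicate 2 (1.78 to 2.37). These intervals cover counting error only. DTA- replicate 1 was the most deeply sequenced library, and its Kera-high cells had a median of 6040 UMIs against 4602.5 to 4670 in the other libraries. No barcode was shared between the Kera-high cells of any pair of libraries, although 31 to 48 barcodes were shared between pairs of whole libraries. Doublets were not removed.

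Kera counts were low in every cell, and the threshold cut through a continuum. Among the members, 315 cells had exactly 2 Kera UMIs, 170 had 3, 88 had 4, 46 had 5 and 77 had 6 or more, with a maximum of 14. Just outside the threshold, 965 Col1a1-positive barcodes had a single Kera UMI. The members nevertheless held 2311 of the 3835 Kera UMIs of all deposited barcodes (60.3%). Free RNA can place UMIs in cells that do not express a gene, so cells that should lack Kera were also counted. Of 8149 barcodes rejected for their hemoglobin content, 43 had any Kera UMI (0.528%) and 10 had 2 or more, whereas 4.68% to 6.53% of Col1a1-positive cells of each library had at least 1. Kera was seen in 2 of 272 macrophage barcodes, 3 of 498 endothelial barcodes and 1 of 258 epithelial barcodes. The hemoglobin-rich barcodes had medians of 2627 to 3781.5 UMIs and the Col1a1-positive cells of 3694 to 5126 UMIs, so depth was in favor of the latter.

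Markers of other cell types were scarce in the members. At least 2 UMIs of an epithelial, endothelial, macrophage, mast cell or Schwann cell list were found in 34 members (4.89%), and mast cell genes accounted for the largest group, 12 cells. The summed level of the 10 epithelial genes was 16.1, 16.6, 28.4 and 22.4 raw CPM (CPM taken as UMIs of the genes over all UMIs of the same cells, with no normalization between libraries), with Krt14 or Krt15 as the most abundant gene in each library. The 8 endothelial genes summed to 9.37, 14.6, 16.8 and 24.4 raw CPM, with Egfl7 as the most abundant gene. The 8 macrophage genes summed to 1.34, 69.7, 35.8 and 7.12 raw CPM, and 7 of the 8 were at 0 in DTA- replicate 1. The 7 mast cell genes stood apart in DTA- replicate 2, at 580.5 raw CPM against 9.16 to 31.6 elsewhere. In that library 147 of 162 Cpa3 UMIs and 124 of 125 Mcpt4 UMIs came from a single barcode.

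Several matrix genes that did not enter the rule stood higher in cells with more Kera UMIs. Averaged over the 4 libraries, Dcn stood at 1631 raw CPM in depth-matched Col1a1-positive cells without Kera, 2976 with 1 Kera UMI, 3589 with 2, 4980 with 3 to 5 and 5150 with 6 or more. Egfl6, which encodes a secreted matrix protein, went from 110 to 233, 267, 354 and 530 raw CPM over the same steps. Elastin (Eln) went from 237 to 334, 356, 427 and 629 raw CPM. Scx went from 11.4 to 21.1, 27.9, 38.7 and 95.2 raw CPM, but at the last step DTA- replicate 1 stood at 229 and the other libraries between 18.2 and 71.4. Lum leveled off at 857 and then stood at 637 raw CPM, and Mkx stayed between 13.7 and 19.6 at every step. The last step held 77 cells, 10 to 28 per library. These are levels along a gradient of the gene that chose the cells and were not tested.

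**Figure D1:**
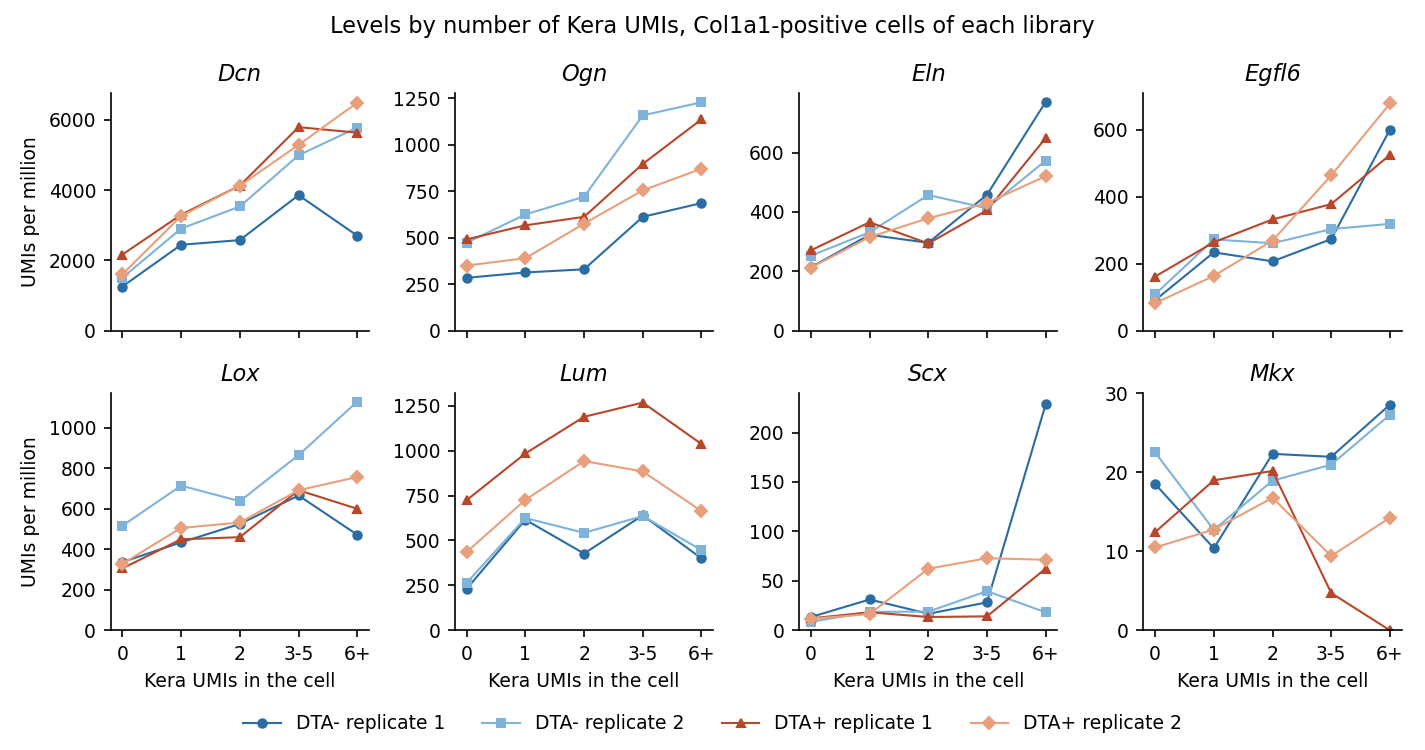
Each panel plots the level of a gene in raw CPM (vertical axis, from 0) against the number of Kera UMIs in the cell (horizontal axis: 0, 1, 2, 3 to 5, 6 or more), with a line for each library, DTA- in blue and DTA+ in red. Dcn, Ogn, Egfl6 and Eln lie higher at 6 or more Kera UMIs than at 0 in each of the 4 libraries, whereas Mkx shows no common slope and Scx at the last step is dominated by DTA- replicate 1.

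To ask which genes set Kera-high cells apart, their UMI counts were summed per library and compared with 11612 Col1a1-positive cells that had no Kera UMI and were drawn to the same distribution of total UMIs within each library. The median total of the drawn cells was 6086.5, 4603, 4625 and 4701 UMIs, close to that of the members. Of 12675 genes tested with edgeR's quasi-likelihood test, with the library as a block, 1398 (11.0%) had a Benjamini-Hochberg adjusted p-value under 0.05, with 781 higher (6.16%) and 617 lower (4.87%) in Kera-high cells. The lists below are read against these shares. The median log2 fold change of all genes was -0.01. Levels in this and the later tests are CPM normalized by edgeR's TMM method.

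The small leucine-rich proteoglycans were raised beyond Kera itself. Of the other 13 genes of the list, 9 passed the filter on low counts, 5 were higher and none was lower, with a median log2 fold change of 0.96. Decorin (Dcn), which coats collagen fibrils, stood at 3218, 4783, 5139 and 5039 CPM in Kera-high cells and at 1250, 1509, 2092 and 1515 CPM in Kera-negative cells, a 2.86-fold difference (95% interval 2.65 to 3.09, edgeR adjusted p = 7.97e-13). The 4 Kera-high values all lay above the 4 Kera-negative values. Osteoglycin (Ogn) was 1.94-fold higher, at 497, 1049, 806 and 706 CPM against 283, 474, 475 and 331 CPM. Lumican (Lum), the neighbor of Kera, was 2.12-fold higher, at 530, 618, 1245 and 890 CPM against 231, 264, 701 and 412 CPM, and its values overlapped between the cell classes although each library moved the same way. Asporin (Aspn) rose by 1.13 on the log2 scale (edgeR adjusted p = 8.38e-08) and biglycan (Bgn) by 0.20 (edgeR adjusted p = 0.0262). Fmod, at 0.40 ± 0.35 on the log2 scale, Omd, Podn and Ecm2 did not pass. Prelp, Epyc, Chad and Optc fell under the filter.

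Fibrillar collagens and the enzymes that process them followed the same direction, but much of that difference went with Col1a1 itself. Excluding Col1a1, 11 collagen genes were tested and 7 were higher, among them Col14a1, which encodes a collagen that decorates fibrils (638, 1018, 935 and 767 CPM against 309, 501, 442 and 343 CPM, edgeR adjusted p = 3.19e-11), and Col1a2 (2.04-fold, 95% interval 1.89 to 2.19). The type VI collagen genes Col6a1, Col6a2 and Col6a3 were at 0.05, 0.00 and 0.10 on the log2 scale and did not pass. Of 18 processing and cross-linking genes, 17 were tested and 11 were higher, with a median log2 fold change of 0.45. Lysyl oxidase (Lox), which cross-links collagen and elastin, stood at 596, 856, 591 and 643 CPM against 336, 518, 296 and 311 CPM. Pcolce, an enhancer of procollagen cleavage, rose by 0.94 on the log2 scale (edgeR adjusted p = 1.46e-07). With Kera-negative cells matched on Col1a1 as well as on total UMIs, 4 collagens were higher and 3 were lower, these being Col6a1, Col6a2 and Col6a3, and the median of the list dropped from 0.69 to 0.11. In the same setting 4 processing genes remained higher and their median log2 fold change was 0.13.

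All 12 genes of the elastic fiber list were tested, with 9 higher, 1 lower and a median log2 fold change of 0.40. Elastin stood at 421, 485, 384 and 428 CPM in Kera-high cells against 213, 253, 262 and 201 CPM, a 1.86-fold difference (95% interval 1.67 to 2.06, edgeR adjusted p = 4.58e-08) with no overlap between the classes. Mfap4, which encodes a microfibril-associated protein, stood at 610, 599, 398 and 513 CPM against 344, 288, 254 and 256 CPM. The fibrillin genes rose less, Fbn1 by 0.28 and Fbn2 by 0.38 on the log2 scale. Fibulin 2 (Fbln2) went the other way, at 367, 294, 398 and 396 CPM against 483, 497, 511 and 593 CPM. Fbln5, whose product is needed for elastic fiber assembly, was at -0.26 ± 0.10 on the log2 scale and did not pass (edgeR adjusted p = 0.118). Matched on Col1a1, Eln, Mfap4, Emilin1 and Mfap2 were still higher, Fbln2 and Ltbp4 were lower and the median of the list was 0.14.

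Of 12 glycoproteins of dense connective tissue, 10 were higher and 1 was lower (median log2 fold change 0.71). Dermatopontin (Dpt), which binds decorin and promotes collagen fibril formation, was 3.73-fold higher (95% interval 3.12 to 4.47), at 118, 392, 380 and 244 CPM against 41.3, 71.5, 85.5 and 99.3 CPM. Periostin (Postn), a matricellular protein of collagen-rich tissues, stood at 846, 1596, 1034 and 1122 CPM against 419, 642, 530 and 637 CPM. Thbs2 rose by 1.54 and Thbs3 by 1.12 on the log2 scale. Tenascin C (Tnc), which is abundant in developing tendon, fell by 0.89 on the log2 scale, at 39.9, 67.26, 63.9 and 80.6 CPM against 97.5, 126, 102 and 142 CPM (edgeR adjusted p = 4.57e-06). Matched on Col1a1, 5 of the glycoproteins were higher (Dpt, Thbs2, Postn, Thbs3 and Sparc) and Tnc was again lower.

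**Figure D2:**
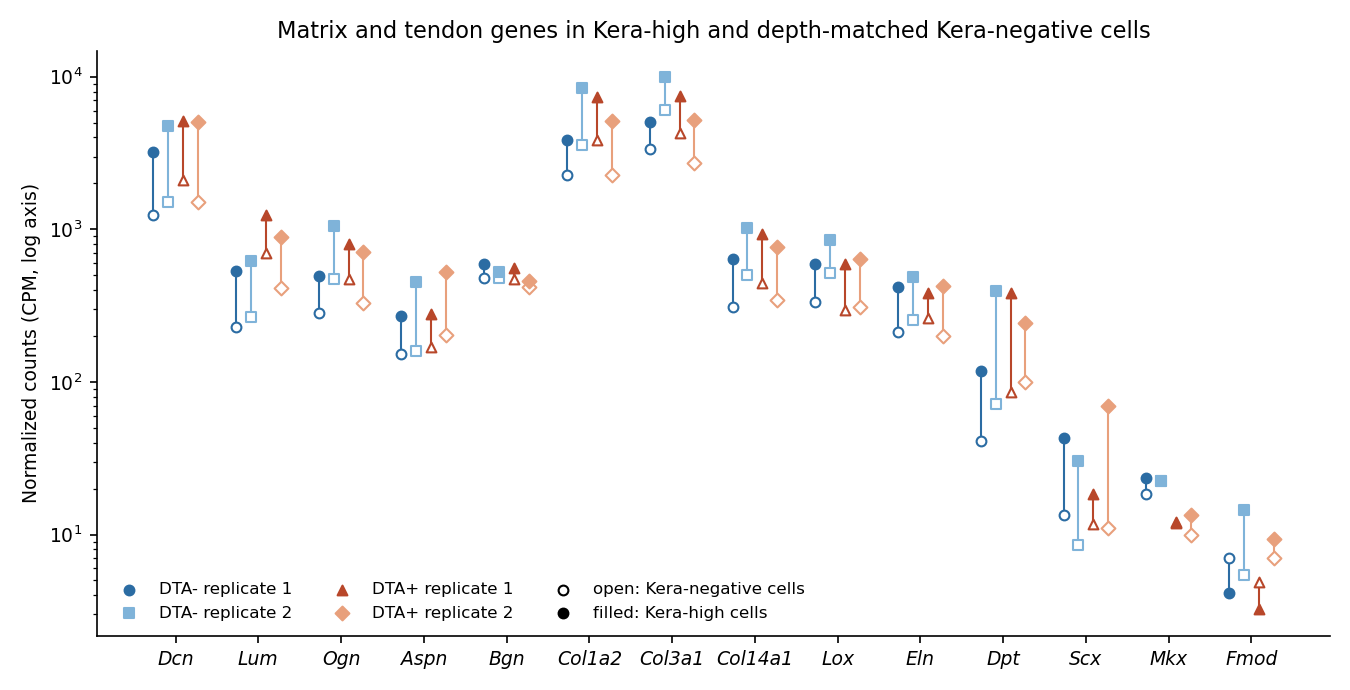
For 14 genes (horizontal axis) the plot gives normalized counts (CPM, vertical log axis) in the 4 libraries, with Kera-high cells as filled and depth-matched Kera-negative cells as open symbols joined by a line, and DTA- in blue and DTA+ in red. From Dcn to Scx the filled symbol lies above the open symbol in each library, whereas Mkx and Fmod do not keep a common direction.

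The tendon list gave a divided picture. Of its 12 genes, 6 passed the filter, and Scx and Chodl were higher. Scleraxis (Scx; chr15:76457452-76459458, GRCm38), the transcription factor of tendon progenitors, stood at 42.7, 30.3, 18.4 and 69.2 CPM in Kera-high cells and at 13.4, 8.59, 11.7 and 11.0 CPM in Kera-negative cells, a 3.57-fold difference (95% interval 2.62 to 4.88, edgeR adjusted p = 8.84e-06). The 4 Kera-high values lay above the 4 Kera-negative values, with DTA+ replicate 1 the lowest. Scx was detected in 81 of 696 members (11.6%) and in 4.82% of the Kera-negative cells. Mohawk (Mkx), which acts later in tendon, was not distinguished, at 23.4, 22.4, 11.9 and 13.4 CPM against 18.5, 22.6, 12.02 and 9.92 CPM (0.18 ± 0.20 on the log2 scale, edgeR adjusted p = 0.683), and was detected in 7.61% of members and 7.36% of Kera-negative cells. Both factors were detected together in 14 members (2.01%) and in 0.870% of the Kera-negative cells. Chodl, a membrane lectin on the tendon list, rose by 0.96 on the log2 scale (edgeR adjusted p = 0.0174), but DTA- replicate 1 moved the opposite way and DESeq2 did not call it. Tppp3, Fmod and Egr2 did not pass.

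Tenomodulin, which marks maturing tendon cells, was not seen. Tnmd (chrX:133850980-133865577, GRCm38) had 0 UMIs in the 696 members, which allows a share of up to 0.431% of cells with a UMI, and was detected in 16 barcodes of all those within the limits. Thbs4, Comp, Ptx4, Col22a1 and Cilp2, the remaining tendon genes, were under the filter. The summed level of the 12 genes was 104.5, 118.6, 115.8 and 178.1 raw CPM in Kera-high cells and 95.1, 109.6, 81.8 and 83.2 raw CPM in Kera-negative cells, so that DTA+ replicate 2 alone lay far above the comparators. Matched on Col1a1, Scx and Chodl were again the genes called.

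Cartilage and bone genes were lower in Kera-high cells. Of 14 cartilage genes, 8 were tested and 7 were lower. Sox5, Sox6, Col2a1, Col9a1, Col9a3 and Hapln1 fell under the filter in the later fit of Kera-high cells alone. They were tested here because of their Kera-negative counts. The count of the list and its median log2 fold change of -2.98 are therefore a description. Sox9, the master factor of chondrocytes that tendon progenitors also express, stood at 20.6, 10.1, 17.3 and 38.2 CPM against 123, 80.2, 78.0 and 94.3 CPM (edgeR adjusted p = 5.14e-08). Sox5, its partner, gave 0, 1, 1 and 0 UMIs in Kera-high cells although its Kera-negative level was 20.5 to 23.6 CPM in each library. Col2a1, the collagen of cartilage, gave 0, 4.48, 2.17 and 3.10 CPM against 28.2, 24.7, 21.5 and 27.7 CPM. Among the members, 8 cells (1.15%) had 5 or more UMIs of the cartilage list against 8.67% of Kera-negative cells. Of 12 bone genes, 7 were tested and Dlx6, Dlx5, Runx2 and Alpl were lower. Dlx5 stood at 4.13, 1.12, 5.41 and 1.03 CPM against 41.2, 20.9, 20.2 and 37.8 CPM. Dlx6, Dlx5 and Runx2 likewise passed the filter through Kera-negative cells, so their falls are a description. Runx2 and Dlx5 were never detected together in a member, against 1.75% of Kera-negative cells.

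Genes of the TGF-beta pathway, which drives Scx and matrix synthesis in fibrous tissues, moved in a minority. Of 16 genes tested, 5 were higher and 1 was lower (median log2 fold change 0.14). The ligand Tgfb3 rose by 0.70 and the co-receptor Tgfbr3 by 0.62 on the log2 scale. The latent ligand-binding proteins Ltbp2 and Ltbp3 rose by 1.12 and 0.50. Among targets, Ccn2 stood at 37.1, 32.5, 13.0 and 15.5 CPM against 10.4, 11.6, 9.05 and 11.1 CPM, whereas Smad7, the inhibitory Smad, fell by 0.81 on the log2 scale (edgeR adjusted p = 1.42e-06). Tgfb1, Tgfb2, both type I and type II receptor genes, Smad2, Smad3, Smad4, Skil and Ltbp1 did not pass.

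Fibroblast and mural genes did not set the class apart as groups. Of 10 genes of loose and dermal fibroblasts, Akap12 and Cd34 were higher, Lef1 and Crabp1 were lower and 4 did not pass. Pi16 and Ly6a, markers of adult loose fibroblasts, were under the filter. Of 12 smooth muscle and pericyte genes, Des was higher and the pericyte genes Rgs5 and Pdgfrb were lower. Acta2 and Myh11, the smooth muscle actin and myosin, ranged from 6.20 to 289 CPM and from 3.10 to 79.6 CPM in Kera-high cells and were not called. Among genes of steroid receptors and enzymes, Esr1, the estrogen receptor, and Srd5a2, which makes dihydrotestosterone, fell by 2.10 and 1.45 on the log2 scale. Esr1, Srd5a2, Lef1 and Rgs5 fell under the filter in the fit of Kera-high cells alone, so their falls are a description.

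**Figure D3:**
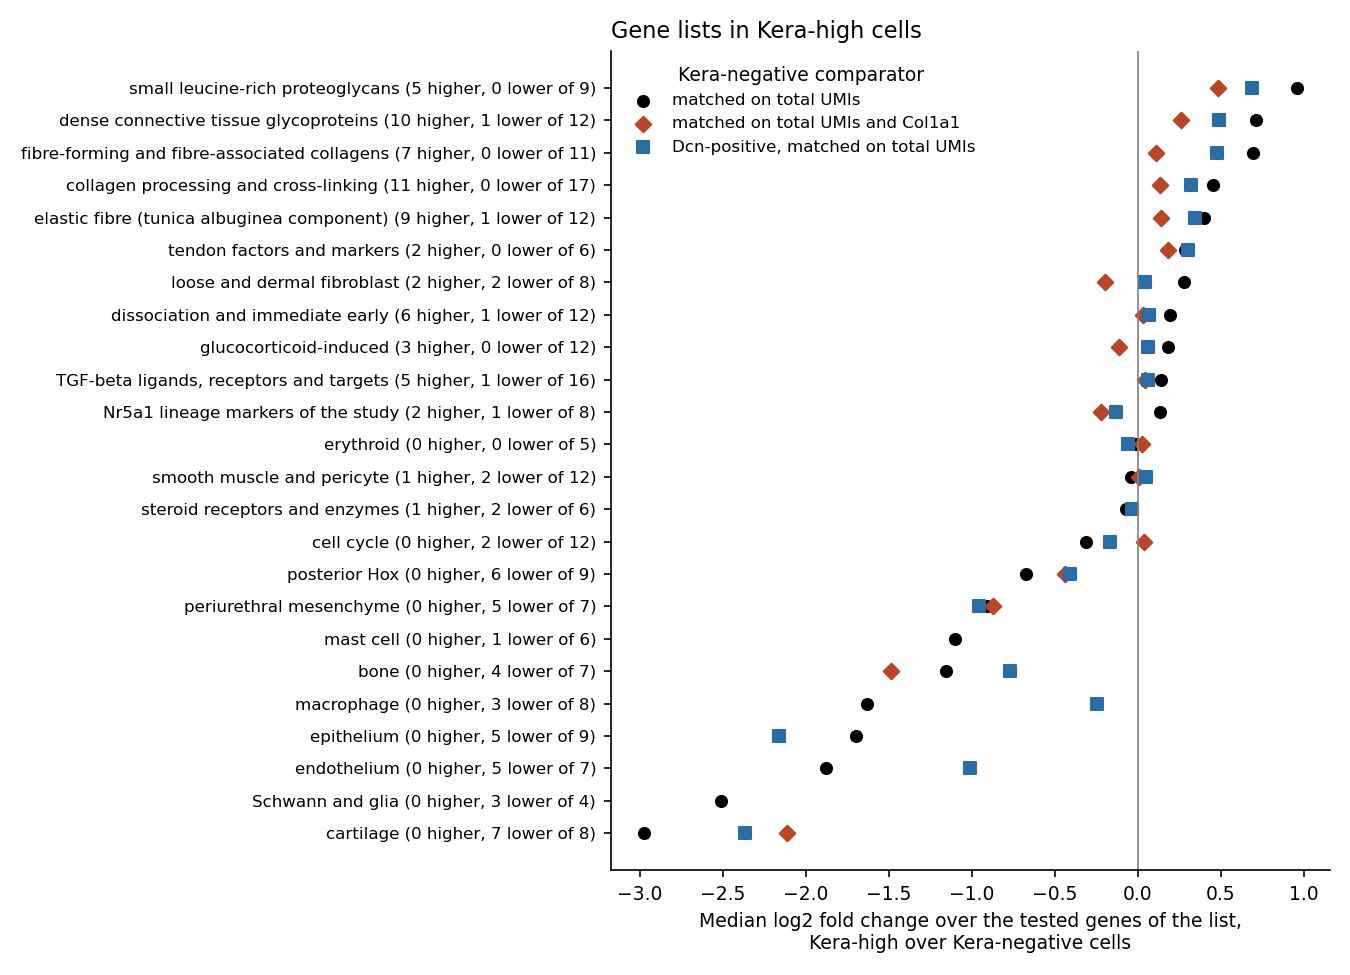
Each row is a gene list, with the number of its tested genes higher or lower in Kera-high cells, and points give the median log2 fold change of Kera-high over Kera-negative cells (horizontal axis) for comparators matched on total UMIs (black), also on Col1a1 (red) or restricted to Dcn-positive cells (blue). Small leucine-rich proteoglycans keep a positive median with each comparator (0.96, 0.48 and 0.69), whereas the collagen median falls to 0.11 when Col1a1 is matched. The negative median of cartilage genes rests mostly on genes that passed the filter through Kera-negative cells and is a description.

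Neurofilament genes were among those with the largest rise at 20 CPM or more. Nefl, which encodes a neurofilament subunit, stood at 53.7, 47.1, 141 and 298 CPM against 7.24, 10.2, 14.6 and 22.8 CPM, a 9.10-fold difference (95% interval 7.24 to 11.4, edgeR adjusted p = 6.27e-11). Nefm, another neurofilament subunit, stood at 23.4, 41.5, 101 and 174 CPM against 5.89, 9.43, 15.1 and 22.01 CPM. The other leading genes were Tmeff2, Sphkap, Nell2, Igfbp6, Angptl1, Colgalt2, Htra3, Agtr2, Cpz, Atp1b1, Efemp1, Vegfd and Hic1, with log2 fold changes from 1.91 to 2.99 and the same direction in 4 of 4 libraries. Efemp1 encodes a fibulin, and Agtr2 the type 2 angiotensin receptor, at 74.3, 204, 220 and 120 CPM against 27.8, 40.5, 30.5 and 29.8 CPM. Among genes at 20 CPM or more in Kera-negative cells, those with the largest fall were Sox5, Msx2, Dlx5, Col2a1, Prdm1, Col9a1, Lef1, Col9a3, Sall1 and Hand2os1. All of them were under the filter in the fit of Kera-high cells alone, so their falls are a description. Msx2, a homeobox gene, stood at 2.75, 0, 3.25 and 11.4 CPM against 73.3, 39.3, 37.9 and 84.8 CPM.

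By the share of cells with a UMI, the genes most like Kera were Abi3bp, AW551984, Egfl6, Col14a1, Tent5a, Dlk1, Lox, Dcn, Ntrk2 and Sulf2. Likeness was the difference in this share between members and depth-matched Kera-negative cells, averaged over 4 libraries, and is a description. Abi3bp, which encodes a matrix-bound protein, was detected in 77.3%, 80.7%, 58.9% and 65.3% of Kera-high cells and in 33.5%, 43.2%, 28.4% and 27.0% of the others. Ntrk2, a neurotrophin receptor gene, was detected in 46.6% of members and 18.3% of the others on average. Dcn was detected in 98.2% and 69.8% on average, so that members lacking Dcn were rare.

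The members were not uniform. Clustered among themselves they formed 8 groups of 15 to 180 cells, and the genes that lead a group are a description, since the same cells defined it. The largest group, 180 cells from all 4 libraries (38, 49, 43 and 50), was led by Scx, Ecrg4, Mgp and Aspn. It held 121 of the 142 Scx UMIs of all members (85.2%), 66 of the 81 Scx-positive cells and an Scx level of 155 raw CPM against 7.34 in the other members. The same group had 625 raw CPM of Eln, 221 of Lum and no Tnmd or Comp. It rests on fewer than 3 detected tendon markers among its leading genes and was left unnamed. At coarser and finer resolution the Scx-led group held 381 and 76 cells, with 77.9 and 259 raw CPM of Scx.

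The other groups had lower Scx levels, from 0 to 29.3 raw CPM, the highest in the group of 80 cells led by Nefm and Nefl. A group of 115 cells was led by Ccn3, Akap12, Thbs2 and Agtr2 and combined high levels of Dcn (6497 raw CPM), Lum (1708), Col14a1 (1222) and Dpt (625) with no Scx UMI. A group of 100 cells was led by Apcdd1 and Rspo1, modulators of Wnt signaling. A group of 38 cells was led by Bmp3, Coch, Meox2 and Wif1 and had the lowest level of Dcn, 868 raw CPM. A group of 80 cells was led by Nefm, Nefl and Msx1, and 45 of these cells came from DTA+ replicate 2 and none from DTA- replicate 1. A group of 46 cells was led by cell cycle genes. In a group of 122 cells the mast cell genes Mcpt4, Cpa3 and Cma1 led the ranking although at most 2.46% of its cells had them, ahead of Tmeff2 and Wnt2. The smallest group, 15 smooth muscle-like cells, had 3607 raw CPM of Acta2, and 11 of them came from DTA- replicate 2. Genes called between the genotypes were left out of the clustering, as were Kera, Col1a1 and tdTomato. Some of the called genes still lead groups, so group sizes were not compared between genotypes.

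**Figure D4:**
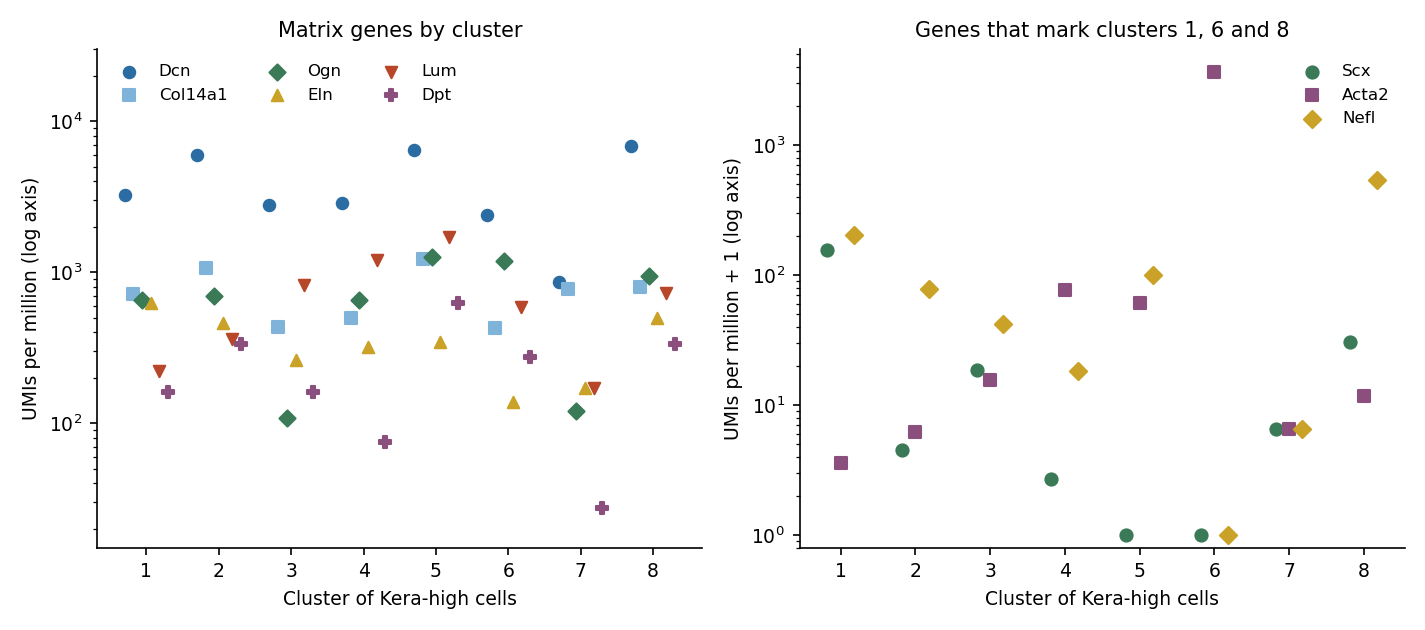
The 8 groups of Kera-high cells are on the horizontal axis of both panels and levels in raw CPM on vertical log axes, for 6 matrix genes at left and, after adding 1, for Scx, Acta2 and Nefl at right, each point being the sum over the cells of a group. Dcn is high in groups 2, 5 and 8, Scx peaks in group 1 at 155, Acta2 in group 6 at 3607 and Nefl in group 8 at 539 raw CPM.

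The share of Kera-high cells was then compared between genotypes. It was 1.92% ± 0.503 (SD, n = 2) in control and 2.19% ± 0.178 (SD, n = 2) in ablated libraries, a difference of 0.265 percentage points that was smaller than the spread of the controls (exact two-sided permutation test, p = 0.667). With 2 libraries per genotype this exact permutation test cannot go below p = 0.333. After thinning each barcode to 1000 UMIs, 7, 28, 25 and 37 cells still met the rule, or 0.0921%, 0.332%, 0.301% and 0.395%, with DTA- replicate 1 apart from the other libraries. Cycling cells made up 31.1%, 24.0%, 24.0% and 21.2% of the members and 39.1%, 32.7%, 27.6% and 25% of the Kera-negative cells.

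To see how the ablation changed these cells, their UMI sums were compared between DTA+ and DTA- libraries, with genotype as the only term. Of 8652 genes tested, 31 (0.358%) had an adjusted p-value under 0.05 with edgeR's quasi-likelihood test, 18 of them higher (0.208%) and 13 lower (0.15%) in DTA+, and 648 had an unadjusted p-value under 0.05. In 37.0% of the tested genes both libraries of a genotype lay above both of the other, so lack of overlap by itself is common here. Leaving out each library in turn gave 52 to 243 calls, of which 23 to 31 were among these 31. Over 14 other settings of the comparison tdTomato, Igfbp2 and Nrp2 were called in 14, and each other gene lost its call in at least 1 setting in which it was tested. Apart from Mylk, the 31 genes kept their direction in each setting in which they were tested. Fewer cells and less RNA per cell cannot be told apart in such sums.

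The reporter and the Rosa locus differed between the genotypes. The study's control genotype names no reporter allele, so presence of that allele and the ablation cannot be told apart here. tdTomato gave 0 and 0 UMIs in control and 76 and 58 UMIs in ablated Kera-high cells, which is at least 39.5-fold higher against a floor of 3 counts over the control group. Gt(ROSA)26Sor, the transcript of the Rosa locus that carries the inserted alleles, stood at 12.2 and 8.81 CPM in control and 99.7 and 105 CPM in ablated cells (edgeR adjusted p = 0.000108). In Kera-negative cells of the same libraries Gt(ROSA)26Sor rose by 2.33 on the log2 scale. In the ablated libraries tdTomato stood at 96.3 and 65.9 raw CPM in Kera-negative and 80.0 and 59.0 in Kera-high cells. The most in 1 Kera-high cell was 7 and 3 UMIs. The study describes leaky tdTomato transcripts at a low level in most cells, so a UMI does not by itself mark the Nr5a1 lineage.

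Smooth muscle genes were lower in DTA+, and in control cells most of their UMIs came from few cells. Myh11 stood at 77.5 and 78.2 CPM in control and 7.50 and 3.04 CPM in ablated cells, 14.6-fold lower (edgeR adjusted p = 0.000108). Acta2 stood at 154 and 284 CPM against 41.8 and 6.08 CPM, 9.30-fold lower (edgeR adjusted p = 0.00617). In DTA- replicate 1 a single barcode held 46 of 57 Myh11 UMIs, and a single barcode held 54 of 113 Acta2 UMIs. In DTA- replicate 2 the most in 1 cell was 11 of 71 Myh11 and 40 of 258 Acta2 UMIs. Acta2 was called in 10 of 13 other settings in which it was tested, the exceptions being DESeq2, the limits on cells that the study states and 3 or more Kera UMIs, and Myh11 in 12 of 13, with those limits as the exception. Tagln fell by 2.15, Mylk by 1.53 and Actg2 by 3.20 on the log2 scale. Mylk was called in 9 of 14 and Actg2 in 9 of 12 other settings in which they were tested. Neither was called under DESeq2 or under the limits of the study. Of the 12 smooth muscle and pericyte genes, 9 were tested and Myh11, Acta2 and Tagln were lower, with a median log2 fold change of -1.01 against -0.01 over all genes. Cells with 5 or more UMIs over Acta2, Myh11, Tagln, Actg2, Cnn1 and Mylk numbered 9, 19, 6 and 1, or 35 of 696 members, and held 91.6% of the Acta2, 89.9% of the Myh11, 69.7% of the Tagln and 61.3% of the Mylk UMIs. In DTA+ cells these shares were 71.1%, 40.0%, 31.9% and 12.9%. Among Kera-negative cells such cells made up 5.63%, 7.27%, 4.04% and 3.24%, against 7.56%, 9.90%, 3.13% and 0.518% of the members. Without these cells, a setting chosen after the values were seen, 6 of the 31 genes were called: tdTomato, Gt(ROSA)26Sor, Fkbp5, Igfbp2, Nrp2 and Ccn3. Of the 27 genes that could still be tested 26 kept their direction, and several that lost their call kept about the same log2 fold change, such as Nefl (2.00 against 2.12), Nefm (2.01 against 2.05) and Emb (2.29 against 2.23). Tagln was at -0.56 (edgeR adjusted p = 0.719) and Mylk turned to 0.50 (edgeR adjusted p = 0.813) on the log2 scale, and Acta2, Myh11 and Actg2 fell under the filter. UMIs of these genes defined the cells left out, so their own loss in this setting follows from its construction.

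**Figure D5:**
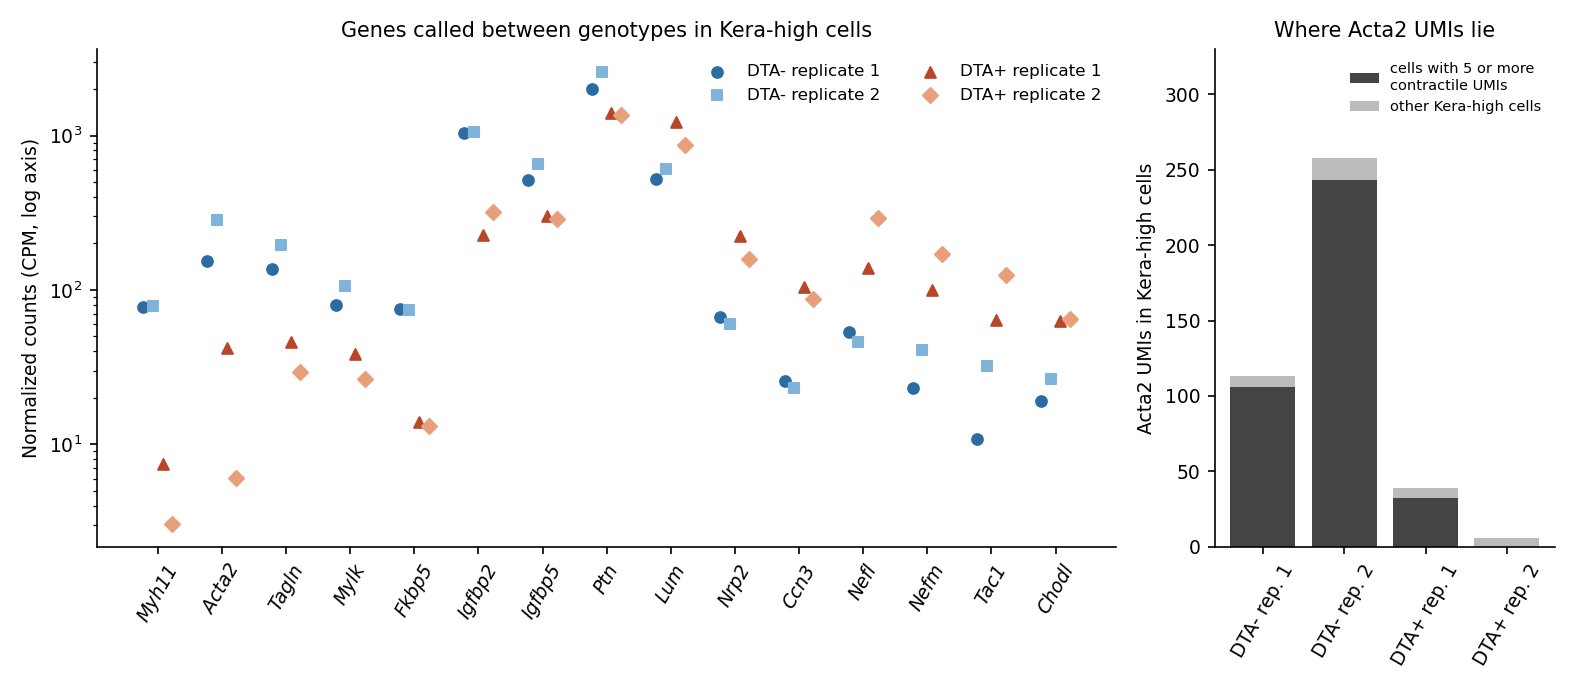
At left, normalized counts (CPM, vertical log axis) of 15 genes called between the genotypes in Kera-high cells, with a symbol for each library, DTA- in blue and DTA+ in red. At right, Acta2 UMIs of each library (vertical axis from 0) are split into those of cells with 5 or more contractile UMIs (dark) and those of other Kera-high cells (light). Fkbp5 stands at 74.8 and 73.8 CPM in the controls and at 13.9 and 13.2 CPM in the ablated libraries, and nearly all Acta2 UMIs of the controls lie in the dark part of the bars.

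Fkbp5 and Igfbp2 fell by more than the spread between replicates. Fkbp5, which encodes a co-chaperone of steroid receptors and is a classic target of glucocorticoids and androgens, stood at 74.8 and 73.8 CPM in control and 13.9 and 13.2 CPM in ablated cells, 5.44-fold lower (edgeR adjusted p = 0.00134). Of the 11 glucocorticoid-induced genes tested it was the only gene called, with a median log2 fold change of -0.68 for the list. Mt2, the remaining gene of the list, was under the filter. Igfbp2, which binds insulin-like growth factors, stood at 1043 and 1052 CPM against 228 and 320 CPM, 3.82-fold lower (edgeR adjusted p = 0.000102). In Kera-negative cells of the same libraries these genes were 5.39-fold and 2.91-fold lower. Igfbp5 fell by 1.00 and Ptn, which encodes a heparin-binding growth factor, by 0.74 on the log2 scale. Both lost their calls under the limits of the study and without contractile cells. Ptn also lost its call under DESeq2 and with 3 or more Kera UMIs. Over 14 other settings the log2 fold change of Ptn stayed between -0.90 and -0.55, and that of Igfbp5 between -1.16 and -0.74. Ifitm1 and Map1b, at -1.46 and -0.81, were called in 8 and 7 of the 14 other settings and lost their calls under DESeq2.

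Nefl and Nrp2 were among the genes higher in DTA+. Nefl, the neurofilament gene that also led the comparison with Kera-negative cells, stood at 53.0 and 46.2 CPM in control and 139 and 292 CPM in ablated cells, 4.36-fold higher (95% interval 2.85 to 6.68, edgeR adjusted p = 0.00649). The 80 members of the group led by Nefm and Nefl came from the libraries in numbers of 0, 20, 15 and 45, and the part of this in the difference was not tested. Nefm, the neuropeptide gene Tac1, the netrin receptor gene Unc5c and Stc1, which encodes a secreted glycoprotein, rose by 1.69 to 2.09 on the log2 scale. Nefm and Stc1 were each called in 12 of 14 other settings, the exceptions being the limits of the study and the setting without contractile cells. Tac1 and Unc5c were called in 8 of 14 and 10 of 13 other settings and lost their calls under DESeq2. Nrp2, a semaphorin co-receptor, stood at 66.6 and 60.6 CPM against 225 and 159 CPM, 3.02-fold higher (edgeR adjusted p = 0.00649). Ccn3, which encodes a matricellular protein, stood at 25.8 and 23.1 CPM against 104 and 87.2 CPM, 3.90-fold higher (edgeR adjusted p = 0.00478). Emb and Mdfic, at 2.23 and 1.66 on the log2 scale, were called in 8 of 13 and 7 of 14 other settings and lost their calls under DESeq2. Of the called genes at lower levels or outside the naming rule, Rmst, Dkk2, Dcc, Txnip and Adgrg6 were higher, and 8430426J06Rik (12, 23, 1 and 0 UMIs) and Pcp4l1 (8, 20, 1 and 0 UMIs) were lower. These 7 and Actg2 were named after their values were seen.

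Of the fibrous matrix genes, Lum was called. Kera and Col1a1 were left out of the counts that follow. None of the 10 other collagen genes, 16 processing genes, 12 elastic fiber genes or 12 glycoproteins tested was called, with median log2 fold changes of -0.08, -0.09, -0.11 and 0.23. Over all genes tested 0.358% were called, so few calls would arise in lists of this size. At 2 libraries per genotype the lack of calls does not show that the levels were equal. Eln, for example, was 0.895-fold in DTA+ with a 95% interval of 0.724 to 1.11, and Col1a2 was 1.02-fold with an interval of 0.734 to 1.41. Of the 6 other small leucine-rich proteoglycans tested, Lum stood at 524 and 607 CPM in control and 1232 and 874 CPM in ablated cells (1.86-fold, 95% interval 1.48 to 2.34, edgeR adjusted p = 0.0371) and the remaining 5 were not called. Dcn was 1.27-fold (1.06 to 1.53) and was not called. By member group, Lum stood at 625 raw CPM in control and 1535 in ablated cells of the group of 100 cells. The group of 115 cells had 1152 and 2095 raw CPM. They drew 20, 16, 38 and 26 and 15, 30, 44 and 26 cells from the libraries. Lum was not higher in ablated cells of the Scx-led group (226 and 215) or the group of 122 cells (381 and 331). In the group of 38 cells it stood at 279 and 64.9, but the controls were at 21.7 and 553 and the ablated libraries at 63.0 and 69.0. Ablated cells were higher in the remaining groups, but the group of 15 cells held 1 ablated cell. In the group of 80 cells DTA+ replicate 1 (617) was not above DTA- replicate 2 (621), the only control library with cells there. The part of the groups was not tested. Lum lost its call under DESeq2, with 3 or more Kera UMIs, without DTA+ replicate 1, without contractile cells and without cycling cells, while its log2 fold change stayed between 0.63 and 1.12 over 14 other settings.

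Among the tendon genes 4 could be tested, and Chodl was called, at 19.0 and 26.4 CPM in control and 63.2 and 64.9 CPM in ablated cells (2.77-fold, edgeR adjusted p = 0.0449). It lost its call under DESeq2, under the limits on cells that the study states, with 3 or more Kera UMIs, after thinning to 1000 UMIs and without contractile cells, while its log2 fold change stayed between 1.28 and 1.83 over 14 other settings. By member group, Chodl stood at 52.2 raw CPM in control and 74.4 raw CPM in ablated cells of the Scx-led group, at 16.7 and 135 raw CPM in the group of 122 cells, and at 35.1 and 176 raw CPM in the group of 80 cells led by Nefm and Nefl, which had no cells from DTA- replicate 1. The part of these groups in the difference was not tested. Scx was 1.22-fold in DTA+ with an interval of 0.669 to 2.24, so neither a rise nor a fall of that size was detectable. Scx was detected in 11.8%, 9.90%, 6.25% and 18.7% of the members, and both ablated libraries stood at the ends of this range. Mkx and Tppp3 were not called.

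Whether the response to the ablation differed between Kera-high and depth-matched Kera-negative cells was asked with an interaction term. Of 12675 genes, 16 (0.126%) were called, and 722 had an unadjusted p-value under 0.05. Myh11, Acta2, Tagln and Mylk fell more in Kera-high cells, by 3.69, 2.30, 1.35 and 1.26 on the log2 scale. In Kera-negative cells alone, Myh11 was at -0.21 (edgeR adjusted p = 0.765) and Acta2 at -0.96 (edgeR adjusted p = 0.229). Without contractile cells in either class none of these 4 differences was called, which follows from the construction of that setting, since UMIs of the same genes defined the cells left out. Chodl rose in Kera-high cells and stood at -0.46 (edgeR adjusted p = 0.248) in Kera-negative cells, a difference of 1.92 on the log2 scale (edgeR adjusted p = 0.00175) that was called in 10 of 14 other settings and ranged from 0.87 to 2.31. The responses of Fkbp5 and Igfbp2 were not distinguished between the classes, with ratios of responses of 0.982 (95% interval 0.643 to 1.499, edgeR adjusted p = 0.998) and 0.752 (0.634 to 0.893, an interval not adjusted for the number of genes, edgeR adjusted p = 0.508). Scx gave a ratio of 1.15 with an interval of 0.655 to 2.01. In Kera-negative cells 96 of 14479 genes (0.663%) were called between genotypes.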

How the data were processed

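UMI counts per gene and barcode were deposited by the authors as filtered matrices of 4 penis libraries. Per the labels they came from Cell Ranger 4.0.0 and a mouse genome (mm10) to which the tdTomato sequence had been added, whereas the study's methods name an earlier Cell Ranger version. The libraries shared 1 sequencing flow cell. Doublets were not removed.

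Counts of Kera-high cells and of depth-matched Col1a1-positive cells without Kera (drawn in bins of 1000 UMIs, at most 20 per member) were summed per library and tested with edgeR 4.0.16 (TMM normalization, filterByExpr, quasi-likelihood test, Benjamini-Hochberg adjustment, threshold 0.05) in R 4.3.3. The comparison of cell classes used the library as a block, and Kera and Col1a1 stayed out of it. DESeq2 1.42.0, a likelihood ratio test, other filters, thinning, other limits and left-out libraries or cells were alternatives. CPM values differ slightly between fits because each set its own scaling. Members were clustered with scanpy 1.11.5 (15 principal components, 1500 variable genes, Leiden resolution 0.4). The scripts were tested on simulated data.

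Named genes were those called at a mean of 20 CPM or more, with no overlap between genotypes (up to 12 each way), with the same direction in 4 of 4 libraries for cell classes (15 higher, 10 lower), or by an interaction (up to 6 each way), besides members of 25 lists. The members and lists were chosen with earlier results of these data known. Some genes that the counts include are not reported here. Coordinates are GRCm38.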

Additional observations from a re-analysis of the deposited data

Results flagged for a closer look

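In 16 genes the response to the ablation differed between Kera-high and Kera-negative cells by the interaction test (edgeR quasi-likelihood, adjusted p under 0.05). Values are the response of Kera-high minus that of Kera-negative cells on the log2 scale.

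The contractile genes differed by -3.69 (Myh11), -2.30 (Acta2), -1.35 (Tagln) and -1.26 (Mylk). In control Kera-high cells 28 cells, defined by UMIs of these and related genes, held 93.8%, 94.1%, 79.5% and 80.6% of their UMIs, and in ablated Kera-high cells 7 such cells held 40.0%, 71.1%, 31.9% and 12.9%. Palld, which encodes an actin-associated protein, differed by -0.79, with 1.33 in Kera-negative cells and 0.54 in Kera-high cells.

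The mast cell genes Mcpt4, Cpa3 and Cma1 differed by -4.95, -4.53 and -3.17. In DTA- replicate 2, 1 barcode held 124 of 125 Mcpt4 UMIs and 147 of 162 Cpa3 UMIs of the members. Without members that carried markers of other cell types, Cpa3 stood at 0.07 and Cma1 at 0.24.

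C1qtnf3 differed by -3.66, with 3.24 in Kera-negative cells (edgeR adjusted p = 0.0792) and -0.41 in Kera-high cells. The Kera-negative controls held 8 and 2 of its UMIs, and the difference was called in 4 of 14 other settings, standing at -2.18 (edgeR adjusted p = 0.654) without other cell types and -1.88 (edgeR adjusted p = 0.760) without contractile cells. The response was higher in Kera-high cells for Clu by 2.12, Chodl by 1.92, Fndc1 by 1.49, Apod by 0.92, Klf2 by 0.74 and Tmsb4x by 0.38. Of the 14 other settings Tmsb4x was called in 5 and Apod in 6, Clu, Chodl, Fndc1 and Klf2 each in 10, and without other cell types Tmsb4x (edgeR adjusted p = 0.0713) and Apod (edgeR adjusted p = 0.118) were not called. Palld and Acta2 were called in 10, Tagln in 11, Myh11 in 13 and Mylk in 7 of these settings. Fndc1 was at -0.78 in Kera-negative and 0.68 in Kera-high cells, and Clu at -0.66 and 1.46, neither of them called within a class.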

How the results depend on the processing

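In Kera-high cells 31 genes were called between genotypes. The number was 13 with DESeq2, 149 with no filter on low counts, 113 with a likelihood ratio test, 8 under the limits of the study, 18 with 3 or more Kera UMIs, 6 without contractile cells and 52 to 243 when a library was left out, where the lone library of a genotype is assumed to vary like the others. Mylk turned to 0.50 without contractile cells. Between cell classes 1398 genes were called, 926 with DESeq2, 660 matched on Col1a1 and 984 to 1182 without a library. The interaction gave 16 calls, 2 with DESeq2, 49 with no filter, 33 with a likelihood ratio test, 5 under the limits of the study, 25 with 3 or more Kera UMIs, 9 without other cell types, 2 matched on Col1a1, 37 against Dcn-positive cells and 9 to 47 without a library. Without a library each, Mcpt4 ranged from -5.79 to 3.94 and Cma1 from -4.22 to 0.57, both reversed without DTA- replicate 2. Other reversed values were 1.18 for Cma1 under the limits of the study, 0.0747 for Cpa3 and 0.24 for Cma1 without other cell types, and 0.0417 for Tagln and 0.31 for Mylk without contractile cells. In Kera-negative cells 96 genes were called, 359 with DESeq2, 1040 with no filter, 552 with a likelihood ratio test, 202 under the limits of the study, 213 against cells matched to members with 3 or more Kera UMIs, 249 without other cell types and 63 to 424 without a library. The share of Kera-high cells differed by -0.0905 to 0.620 percentage points without a library. With the replicate block 112 genes were called in Kera-high cells, all 31 among them, and 462 in Kera-negative cells, but same-numbered libraries did not deviate together (correlation -0.071 and -0.061), so they share only a number. Comparators restricted to Dcn-positive cells and the setting without contractile cells were chosen after seeing the data. The cause of these changes was not tested. With 2 libraries per genotype, 119 to 193 cells each and Kera at 14 UMIs or fewer per cell, genes at low levels fell under the filter, and differences within the spread of replicates were not detectable.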

Other observations

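Genes of the tissue around the urethra and of distal patterning were lower in Kera-high than in Kera-negative cells. Of 7 periurethral mesenchyme genes, 5 were lower and none was higher (median log2 fold change -0.91). The lower genes were the transcription factor genes Sall3, Foxf1 and Foxf2 and the hedgehog pathway genes Hhip and Ptch1. Sall3, Foxf1 and Hhip were under the filter in the fit of Kera-high cells alone, so the count and median are a description. Of 9 posterior Hox genes, which pattern the genital tubercle along its axis, 6 were lower, from -0.47 for Hoxd13 to -1.30 for Hoxa13, and 2 of 8 were lower when cells were matched on Col1a1. Of 8 Nr5a1 lineage markers, Nrg1 (1.35) and Adamts9 (0.57) were higher and Col23a1 (-0.48) was lower. The list is that of the study, which first described the lineage in a separate developmental series.

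Of 12 genes induced by tissue dissociation, Atf3, Fosb, Jun, Junb, Fos and Egr1 were higher in Kera-high cells and Ier3 was lower. Their summed level was 7793, 17233, 14480 and 15004 raw CPM in Kera-high cells and 6639, 14424, 13250 and 11454 raw CPM in Kera-negative cells, lowest in DTA- replicate 1 in both classes. Of 12 glucocorticoid-induced genes, Cdkn1c, Errfi1 and Dusp1 were higher, and of 12 cell cycle genes Top2a and Pcna were lower. Of the skeletal muscle list Tnnt1 was the only gene tested and rose by 1.17. Lists of other cell types were lower in part, with 5 of 9 epithelial, 5 of 7 endothelial, 3 of 8 macrophage, 3 of 4 Schwann cell and 1 of 6 mast cell genes, and 0 of 5 erythroid genes called. The epithelial, endothelial, macrophage and Schwann cell genes called were under the filter in the fit of Kera-high cells alone. The counts of these lists are therefore a description.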
